A study of Mus musculus with 46 samples.

Results

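Slc12a2, Slc12a5 and Slc12a7 are 3 of the genes for cation-chloride cotransporters, which move chloride across the membrane together with sodium or potassium. They were taken by name from the 22800 genes of the count table and followed in all 46 cells. Each library was made from the cytosol of 1 mouse neuron of postnatal day 21 to 30, drawn up through a patch-clamp pipette. All cells were labelled as oriens-lacunosum moleculare (OLM) interneurons, dendrite-targeting inhibitory cells of the hippocampus, and as having passed quality control. A Cre driver line for the serotonin receptor gene Htr3a gave 23 cells, and one for the somatostatin gene Sst gave the other 23. Cre recombination marks cells in which the driver gene was active at some time, so a line is not itself a cell type. The labels state no strain, treatment, sex or animal, so a line counts as 1 sample. Cells of 1 line may share an animal, no test between lines was made and the spreads given are between cells.

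Cation-chloride cotransporters set how much chloride a neuron holds, and with it whether current through GABA-A receptors lowers or raises the membrane potential. NKCC1, encoded by Slc12a2, brings sodium, potassium and chloride into the cell, and it dominates in immature neurons. KCC2, encoded by Slc12a5, is the neuronal potassium-chloride cotransporter that takes chloride out, and it rises as the brain matures. KCC4, encoded by Slc12a7, is a potassium-chloride cotransporter best known from epithelia such as those of the kidney and the inner ear. WNK kinases and their partners SPAK and OSR1 phosphorylate both groups, which activates NKCC1 and inhibits the KCC proteins.

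The libraries held between 3391829 and 31386369 assigned reads, with medians of 15336981 in the Htr3a line and 16726879 in the Sst line. The number of genes read per cell had a median of 8169 in the former and 6569 in the latter. The GABA-synthesis gene Gad1 and the peptide gene Sst had reads in all 46 cells, and each of the 8 OLM marker genes listed was read in both lines. The fewest Gad1 reads, 4 and 24, were in replicates 4 and 20 of the Htr3a line. Summed over 36 markers of glial and vascular cells, of which 34 had a read in some cell, the levels ranged from 37.0 to 14696 counts per 1000000 assigned reads (CPM) among Htr3a line cells and from 113 to 11396 CPM among Sst line cells.

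Slc12a5 (chromosome 2, 164960802 to 164999731, GRCm38, plus strand, protein-coding) was the member read most widely and at the highest level per length. All 23 Htr3a line cells held a read (100%, exact Clopper-Pearson 95% interval 85.2 to 100). In the Sst line 22 of 23 cells did (95.7%, 78.1 to 99.9). Intervals here and below cover counting error only. Of all 22800 genes, 3.26% were read in 45 or more of the 46 cells. The gene has 2 RefSeq start sites that lie 7142 bases apart. They belong to alternative first exons, which are known to give the KCC2a and KCC2b forms of the protein, and a count per gene adds the transcripts of both. A stretch of 200 bases upstream of each start (RefSeq sequence, GRCm38.p6, plus strand) is shown, which ends before the first GENCODE transcript start there and so short of the RefSeq starts at 164960846 and 164967988. The stretches are shown because these counts cannot say which of them was in use:
Slc12a5 upstream start, chr2:164960602-164960801: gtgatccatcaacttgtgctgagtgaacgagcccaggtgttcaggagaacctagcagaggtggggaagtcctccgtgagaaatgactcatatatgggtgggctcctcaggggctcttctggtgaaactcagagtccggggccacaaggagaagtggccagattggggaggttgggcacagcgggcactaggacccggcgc
Slc12a5 downstream start, chr2:164967783-164967982: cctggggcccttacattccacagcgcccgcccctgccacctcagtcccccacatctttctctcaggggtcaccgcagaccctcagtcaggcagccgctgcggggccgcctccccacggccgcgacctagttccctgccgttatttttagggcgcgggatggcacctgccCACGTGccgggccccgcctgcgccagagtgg
Capitals mark CACGTG, the E-box letters that USF factors bind, which a search of both strands over 250 bases found at the downstream start and not at the upstream one. The same letters occur in 6.02% of 32851 such windows. GCGTGGGCG and GCGGGGGCG, letters bound by EGR factors (0.536% and 2.57% of windows), and TATAAA (12.4%) were in neither window. A match is a run of letters and was not tested as a site.

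In Htr3a line cells the Slc12a5 level ran from 0.0601 CPM through a median of 133 to 431 CPM. In Sst line cells it ran from 0 through a median of 131 to 343 CPM. The ranges of the lines overlapped along nearly their whole length, and the medians almost coincided. A single cell in each line fell far below the others. Htr3a line replicate 6 held 1 Slc12a5 read among 16650272, and the next lowest cell of that line, replicate 22, was at 24.7 CPM. Sst line replicate 22 held 0 Slc12a5 reads among 7168358, where 3 reads would be 0.419 CPM, and the next lowest, replicate 13, was at 13.6 CPM. Both low cells held many Gad1 reads, 31387 and 12729. Htr3a line replicate 6 also had the fewest genes read of its line (3350), and Sst line replicate 22 carried 10194 CPM of the glial and vascular markers. Whether either of these has a part in the missing Slc12a5 reads was not tested.

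The mean of log2(CPM + 1) for Slc12a5 was 6.62 ± 1.76 (SD between 23 cells) in the Htr3a line and 6.44 ± 1.92 (23 cells) in the Sst line. The line difference, Sst line minus Htr3a line, was -0.17, far inside the SD between cells. Summed over all cells of a line, Slc12a5 took 134 CPM (exact Poisson 95% interval 133 to 136) in the Htr3a line. In the Sst line the sum was 137 CPM (136 to 139), which is the other order. Without Sst line replicate 22 the line difference was 0.12. No direction between the lines can therefore be read for Slc12a5.

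**Figure D1:**
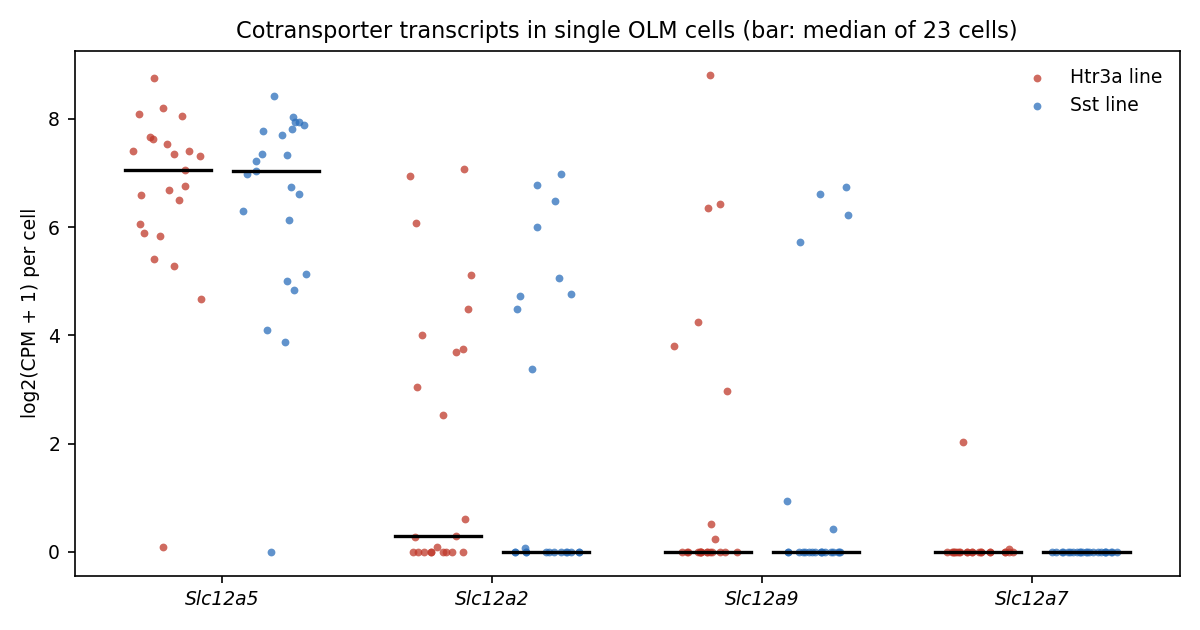
Level of 4 cotransporter genes in each cell, as log2(CPM + 1) on the vertical axis, with Htr3a line cells in red, Sst line cells in blue and a black bar at the median of 23 cells. Slc12a5 forms a single band with 1 cell far below it in each line, Slc12a2 splits into cells at or near 0 and cells up to 7.07, and Slc12a7 is above 1 in a single cell.

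Slc12a2 (chromosome 18, 57878678 to 57946821, plus strand, protein-coding) had reads in fewer cells. They were 14 of 23 in the Htr3a line (60.9%, 38.5 to 80.3) and 10 of 23 in the Sst line (43.5%, 23.2 to 65.5). These intervals, like the others for shares of cells, treat cells as independent, though cells of 1 line may share an animal. They do not compare the lines. Of all genes, 29.9% were read in 24 or more cells. Its level was uneven from cell to cell. Among Htr3a line cells it lay between 0 and 133 CPM with a median of 0.227 CPM, and among Sst line cells between 0 and 125 CPM with a median of 0. The highest Htr3a line cells were replicates 9 (133 CPM), 2 (123 CPM) and 15 (66.7 CPM). The highest Sst line cells were replicates 20 (125 CPM), 23 (108 CPM), 1 (88.8 CPM) and 7 (62.9 CPM). The top of the range was thus alike in the lines, and 5 cells held 65.2% of all Slc12a2 reads.

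Of the 24 cells with Slc12a2 reads, 5 held only 1 to 9 of them. At least 5 reads were found in 11 and 9 cells of the Htr3a and the Sst line, and 8 cells of each line reached 10 CPM. In the 14 Htr3a line cells with a read the median was 12.2 CPM, and in the 10 Sst line cells it was 29.3 CPM. The mean log2(CPM + 1) was 2.09 ± 2.54 (23 cells) in the Htr3a line and 2.12 ± 2.79 (23 cells) in the Sst line. The line difference of 0.030 was negative with any 1 of 22 of the cells left out and after thinning to a common depth, so neither line can be called higher. The sum for the Htr3a line was 20.4 CPM (19.9 to 20.9), or 13.7 CPM without replicate 9. For the Sst line it was 25.2 CPM (24.7 to 25.7), or 19.9 CPM without replicate 1. A cell without a read may still hold the transcript below what its library could detect.

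The Slc12a2 level was set beside the glial and vascular markers. Across the 46 cells, log2(CPM + 1) of Slc12a2 and of the summed glial and vascular markers had a Pearson r of -0.36 and a Spearman rho of -0.30, with r of -0.44 among Htr3a line cells and -0.28 among Sst line cells. The marker lists taken singly had r of -0.13 (oligodendrocyte), -0.15 (oligodendrocyte precursor), -0.14 (astrocyte), -0.15 (microglia) and 0.11 (vascular). For the vascular list r was 0.28 among Sst line cells and -0.035 among Htr3a line cells. The part of such cells in the Slc12a2 reads was not tested. With the number of genes read, r was 0.28 and rho 0.40. Both measures of a pair come from the same library and share its depth, and the values are descriptions over cells.

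Slc12a7 (chromosome 13, 73733094 to 73816754, plus strand, protein-coding) was almost unread. Htr3a line replicate 10 held 57 reads (3.06 CPM) and Htr3a line replicate 14 held 1 read (0.0383 CPM). The other 21 Htr3a line cells and all 23 Sst line cells held 0. In the Sst line, 3 of 23 cells would be 13%, the share that a count of 0 allows by that floor, and the exact Clopper-Pearson upper bound was 14.8%. The share in the Htr3a line was 8.70% (1.07 to 28.0). Of all genes, 41.4% were read in 2 cells or fewer. The summed level of the Htr3a line was 0.168 CPM (0.128 to 0.218), but 0.00307 CPM without replicate 10. Over the Sst line, 3 reads would be 0.00813 CPM. Per kb of merged exons, Slc12a5 was at least 28768-fold above Slc12a7 in the Sst line, with 3 reads over the line as the floor for counting error. In the Htr3a line it was 1358-fold above, a value set by replicate 10, without which 1 Slc12a7 read was left. Merged exons span 12669 bases in Slc12a7 and 7447 in Slc12a5, but the longest transcripts 6987 and 6028. Both folds are smaller with the length of the longest transcript. None of the 31-base words of Slc12a7 transcripts occur in annotated transcripts of other genes. For Slc12a5 the share was 0.132% and for Slc12a2 0.193%.

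Htr3a line replicate 10 was also the cell with the most genes read (12693). The reads of Slc12a4 (KCC1, the widely expressed potassium-chloride cotransporter, 52 reads) and of Slc12a8 (95 reads) were found in that cell alone. Its GABAergic markers summed to 240 CPM, the lowest of the Htr3a line, against a line median of 1764 CPM. Its oligodendrocyte precursor markers stood at 84.9 CPM, where the line median was 0, and its astrocyte markers at 202 CPM, where the line median was 62.6. Its glial and vascular markers together, 446 CPM, were below the line median of 944 CPM, and its OLM markers, 40123 CPM, above that of 20072 CPM. Their part in the Slc12a7 reads was not tested.

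Within single cells, Slc12a5 exceeded Slc12a2 nearly everywhere. Levels of the genes were compared per kb of annotated exon, since a longer transcript yields more reads. Slc12a5 was the higher in 43 of 46 cells (93.5%, 82.1 to 98.6). These were all 23 cells of the Htr3a line and 20 of the 23 of the Sst line. Htr3a line replicate 6 is counted there on 1 read against 0. Both genes were read in 23 cells, Slc12a5 without Slc12a2 in 22, and Slc12a2 without Slc12a5 in 1.

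With 0.1 CPM per kb added to each gene, the median log2 ratio of Slc12a5 to Slc12a2 was 4.85 in the Htr3a line (range 0.11 to 9.18, SD 2.90) and 7.04 in the Sst line (-4.94 to 8.85, SD 4.08). Cells without Slc12a2 reads set the upper part of both ranges, and there the ratio depends on what was added. In the 14 Htr3a line cells with reads of both and with nothing added, the median was 4.14 (0.55 to 10.42). In the 9 such Sst line cells it was 1.09 (-1.41 to 12.03). The order of the lines was thus opposite in the cells with both genes, and no line can be called higher. Summed over cells, Slc12a5 was 9.67-fold above Slc12a2 per kb among Htr3a line cells and 7.999-fold above it among Sst line cells. Merged exons span 10920 bases in Slc12a2 and 7447 in Slc12a5, but the longest transcripts 6520 and 6028. With the length of the longest transcript, both folds and the ratios with nothing added are smaller.

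The 3 cells in which Slc12a2 exceeded Slc12a5 were all in the Sst line. Replicate 23 held 1906 Slc12a2 and 488 Slc12a5 reads, or 9.93 and 3.73 CPM per kb. Replicate 20 held 1948 and 1077 reads, or 11.5 and 9.29 CPM per kb. Replicate 22 held 233 and 0 reads, and it carried 10194 CPM of the glial and vascular markers, against a line median of 1172 CPM. Replicate 23 had the lowest GABAergic markers of the Sst line, 332 CPM against a line median of 2050 CPM. Its OLM markers, 82799 CPM, were the highest of that line. The part of these in the order of the genes was not tested. Replicate 8 lay close to equality, at 1.95 and 2.16 CPM per kb, and fell on the other side with the length of the longest transcript, under which 19 Sst line and 23 Htr3a line cells had more Slc12a5. In the Htr3a line, the cells nearest to equality with reads of both were replicate 9 (12.2 CPM per kb of Slc12a2 and 17.8 of Slc12a5) and replicate 23 (3.10 and 5.57).

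**Figure D2:**
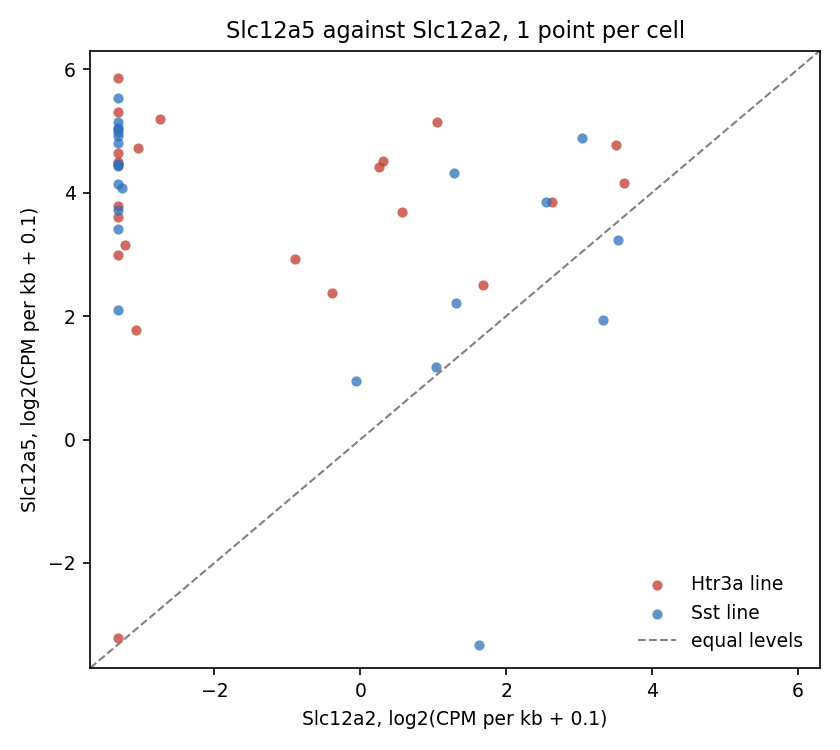
Slc12a5 (vertical axis) against Slc12a2 (horizontal axis) in each cell, both as log2(CPM per kb + 0.1), with Htr3a line cells in red, Sst line cells in blue and a dashed line at equal levels. The column of points at the left is the 22 cells without a Slc12a2 read, 43 of 46 cells lie above the dashed line, and the point at the bottom right is Sst line replicate 22.

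Over the 23 Sst line cells, log2(CPM + 1) of Slc12a5 and Slc12a2 had a Pearson r of -0.48 and a Spearman rho of -0.56. Over the 23 Htr3a line cells, r was 0.12 and rho -0.01. Without the 2 cells of a line farthest from its Slc12a5 median, r stayed at -0.48 for the Sst line and was -0.15 for the Htr3a line. Over the 23 cells with reads of both genes, r was 0.03 and rho 0.094. The difference between the lines was not tested.

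As a share of the summed Slc12a5 and Slc12a2 level per kb, Slc12a2 had a median of 0.133% among Htr3a line cells (lowest 0%, highest 40.6%). Among Sst line cells the median was 0% (lowest 0%, highest 100%). It stayed under 1% in 13 and 14 cells of the Htr3a and the Sst line and passed 20% in 4 and 8. Most cells thus held next to none, and a smaller number held a sizeable share. After the 3 Sst line cells with more Slc12a2, the largest shares were 47.5% in Sst line replicate 8, 40.6% in Htr3a line replicate 9 and 35.8% in Htr3a line replicate 23. All shares use merged exons, and Slc12a2 shares between 0% and 100% are larger with the length of the longest transcript.

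**Figure D3:**
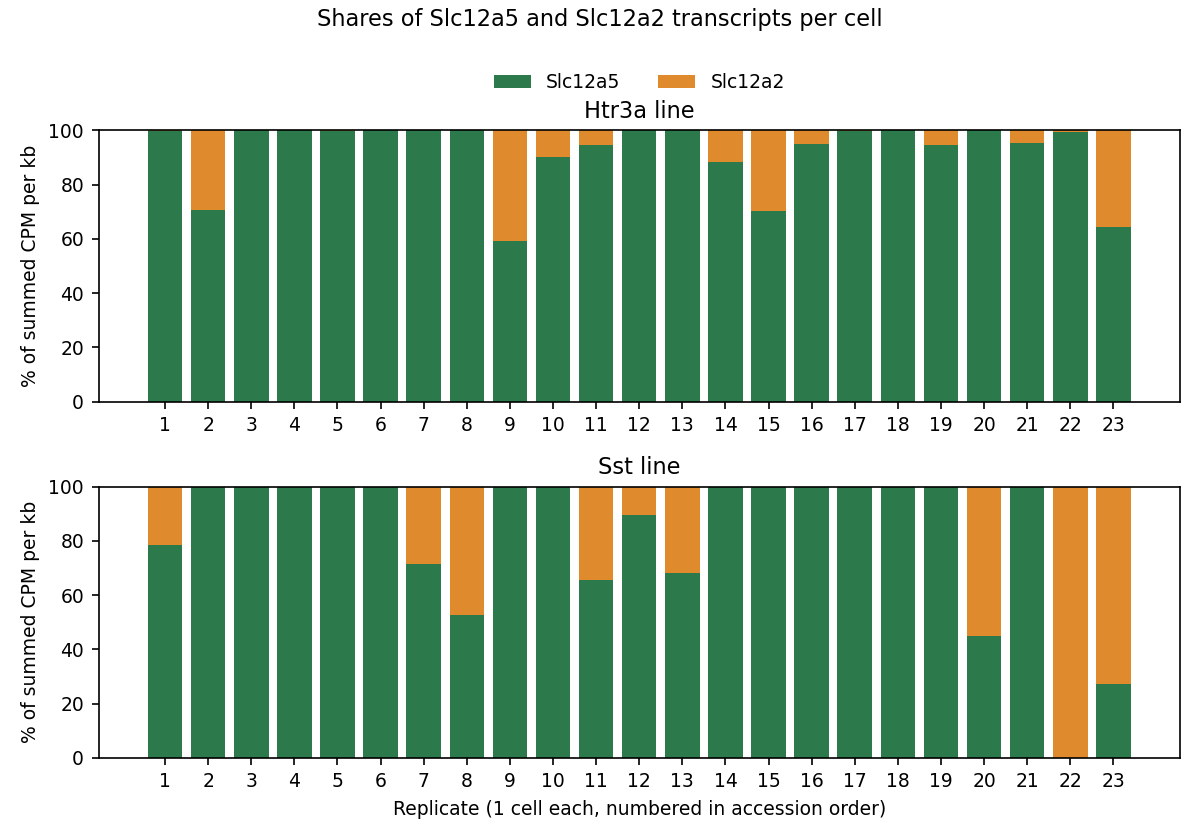
Share of Slc12a5 (green) and Slc12a2 (orange) in their summed CPM per kb, as a percentage on the vertical axis, with 1 bar per cell and 1 panel per line. Orange passes 20% in 4 Htr3a line and 8 Sst line cells and fills the bar of Sst line replicate 22, which had 0 Slc12a5 reads.

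The rest of the family placed these levels. Among the 8 family genes reported, the order per kb and averaged over 46 cells was Slc12a5 (18.96 CPM per kb), Slc12a9 (4.27) and Slc12a2 (1.85), and the other 5 were below 0.04. Slc12a9 encodes a family member whose transport function is not established. It was read in 14 cells, and 83.4% of its reads came from 5 cells. The highest, Htr3a line replicate 4 with 33.8% of the reads, was 1 of the cells low in Gad1 and had the most glial and vascular markers of its line (14696 CPM). Without that cell the Slc12a9 mean was 2.37 CPM per kb. Neighbours in this order were not separated beyond their spread, since the ranges over cells of Slc12a5 and Slc12a9, and those of Slc12a9 and Slc12a2, overlapped. Slc12a1 (NKCC2) and Slc12a3 (NCC), the cotransporters of the kidney tubule, were read in 2 cells and 1 cell.

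Genes that act on the cotransporters were set beside them, with a line difference of 1 as the size called. Among the 10004 genes read in 12 cells or more, 15.7% were lower in the Sst line by that size and 4.59% higher, and the median difference was -0.22. Of the 3 family genes reported that were read in 12 cells, 0 passed it in either direction, with a median of -0.17. Of 7 WNK pathway genes read in 12 cells, 0 passed it, 5 were lower and 2 higher, and the median was -0.065. The most abundant per kb were Cab39 and Cab39l, which encode the MO25 scaffolds of SPAK and OSR1. Cab39 had summed levels of 179 CPM (Htr3a line) and 121 CPM (Sst line), with a line difference of -0.065, and Cab39l 79.8 and 92.98 CPM, with a line difference of -0.36. Among the kinases, Stk39, the SPAK gene, had reads in 17 and 16 cells, and Oxsr1, the OSR1 gene, in 15 and 11. Of the WNK genes, Wnk2 had reads in 18 and 17 cells, Wnk1 in 15 and 9, Wnk3 in 6 and 6, and Wnk4 in 1 and 3. The line difference of Oxsr1 was -0.046 with all cells. Without the 11 Htr3a line and 13 Sst line cells that held over 1000 CPM of glial and vascular markers it was -3.52. How many of all genes pass the size called in these fewer cells was not determined.

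Of 12 KCC2 partner and regulator genes read in 12 cells, 2 were lower in the Sst line by 1 or more and 0 higher, with a median of -0.27. That is near the share over all genes read in 12 cells or more, of which 15.7% were lower by that size and 4.59% higher. The 2 genes, Egr4 and Neto2, were lower with each cell left out, though Neto2 then ranged from -1.45 to -0.97. With a pseudocount of 10 CPM in place of 1, which gives low levels less weight, 0 genes of this list and of the lists below passed the size called. As log2 ratios of summed levels, the 5 genes named below for their line difference lay between -0.99 and -0.15, also short of it. Egr4, an immediate early transcription factor that binds the Slc12a5 promoter, had reads in 20 and 15 cells of the Htr3a and the Sst line. Its mean log2(CPM + 1) was 5.94 ± 3.02 in the Htr3a line and 4.27 ± 3.76 in the Sst line, a difference of -1.66, while its summed levels of 182 and 164 CPM were close. Neto2, an auxiliary subunit of kainate receptors that binds KCC2, was read in 20 and 17 cells (5.85 ± 2.89 against 4.67 ± 3.32, difference -1.18), with summed levels of 166 and 119 CPM. These differences were smaller than the SDs between cells. Without the 11 Htr3a line and 13 Sst line cells that held over 1000 CPM of glial and vascular markers, the difference was -0.32 for Neto2, short of the size called, and -1.14 for Egr4. Prkca (-1.26), Capn1 (-1.13), Prkcb (-1.09) and Ntrk2 (-1.03) then passed that size. The share of all genes past it in these fewer cells was not determined. The most abundant per kb were Ckb, the brain creatine kinase, in 23 cells of each line at 1615 and 1526 CPM, and Ppp1ca, a catalytic subunit of protein phosphatase 1, at 332 and 379 CPM.

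Other proteins carry chloride and bicarbonate through the membranes of neurons. Of 11 chloride and bicarbonate pathway genes read in 12 cells, 2 were lower in the Sst line by 1 or more and 0 higher. The median was 0.10. These 11 include Car2, an enzyme gene and not a transporter gene. Here too the count is near the 15.7% of all genes that were lower by that size, against 4.59% higher. Slc4a3, the anion exchanger AE3 that brings chloride in, had reads in 23 and 21 cells (6.57 ± 2.08 against 5.20 ± 3.06, difference -1.37), with summed levels of 146 and 127 CPM. Its difference was -2.57 without the cells over 1000 CPM of glial and vascular markers. Clcn5, an endosomal chloride-proton exchanger, was read in 13 and 4 cells (1.93 ± 2.49 against 0.69 ± 1.84, difference -1.23), with summed levels of 16.98 and 8.05 CPM. The most abundant per kb were Slc4a10, a sodium-coupled bicarbonate transporter of neurons, at 233 and 290 CPM, and Clcn4, another endosomal exchanger, at 209 and 248 CPM. Clcn3, a vesicular relative of both exchangers, was read in 23 cells of each line. Without the cells over 1000 CPM of glial and vascular markers, Clcn7 was at 2.33 (0.83 with all cells) and Slc4a10 at 1.27 (0.22). Clcn5 was then at -1.45, so genes of this list lay past the size called on both sides. The share of all genes past that size in these fewer cells was not determined, so the values are not read as a result for the list.

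The sodium-potassium ATPase supplies the ion gradients that the cotransporters use. Of 6 genes for its subunits, 1 was lower in the Sst line by 1 or more and 0 higher, with a median of 0.21. That is again near the share of all genes lower by that size, 15.7%, with 4.59% higher. Atp1b2, a beta subunit also known from glia, had reads in 18 and 12 cells (3.63 ± 2.63 against 2.28 ± 2.67, difference -1.35), with summed levels of 38.9 and 19.1 CPM. Without the cells over 1000 CPM of glial and vascular markers its difference was -0.077, so the size called was no longer reached. The most abundant per kb of the 6 were the beta subunit genes Atp1b1, read in every cell at 3551 and 4012 CPM, and Atp1b3, read in 22 cells of each line at 181 and 227 CPM.

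**Figure D4:**
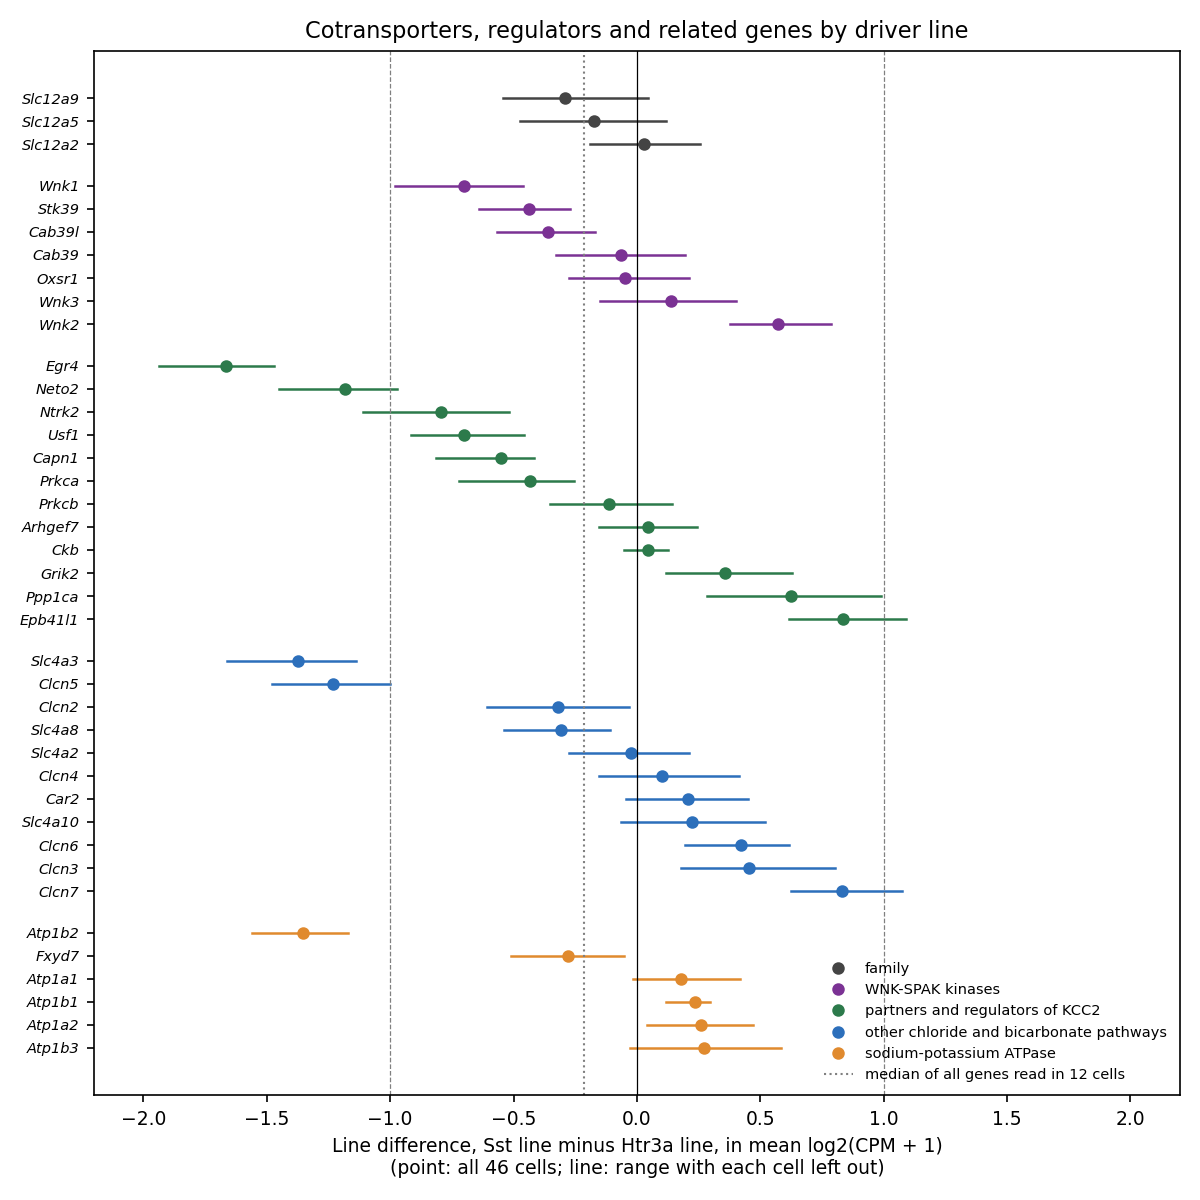
Line difference in mean log2(CPM + 1), Sst line minus Htr3a line, of each gene read in at least 12 cells, by list, with a bar for the range when each cell is left out. Slc12a5, Slc12a2 and Slc12a9 have bars that cross 0, and the 5 genes beyond a dashed line at 1 in size, among them Egr4 and Slc4a3, are all on the lower side. Of all genes read in at least 12 cells, 15.7% were lower by that size and 4.59% higher.

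The genes whose pattern over the 46 cells was most like that of each member were taken from 6704 genes by the Pearson r of log2(CPM + 1). For Slc12a2 they were Fam155a (r = 0.55), Iqcc (0.55) and Krt10 (0.50), against a median r of 0.09 over all genes compared. A lead over that median follows from picking the highest r. Without the 2 cells farthest from the median Slc12a2 level, r of these 3 genes was 0.49, 0.47 and 0.48. For Slc12a5 they were Reln (0.73), Rangap1 (0.57) and Cct7 (0.57). These 3 values rested on the 2 cells with 1 and 0 Slc12a5 reads, since without them r was 0.18, 0.22 and 0.03. Slc12a7 was read in too few cells for such a comparison. All values of 1 cell share its library.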

How the data were processed

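The authors deposited raw counts of reads for 46 single-cell libraries, once by symbol (22800 genes, used here) and once by Ensembl identifier. Per the submitters' processing notes, Trimmomatic, STAR and featureCounts were used with GRCm38. Their versions, the annotation and the use of strand were not given in the sources used here. The deposited normalized table is a signal, and 100% of its values above 0 equalled, to 0.1%, the count over a factor set for each cell. No molecular identifiers are named, so intervals cover counting error only.

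Each cell's counts were scaled to a sum of 1000000 (CPM), and means were taken of log2(CPM + 1). Levels of different genes were compared per kb of merged exons of GENCODE M21 (GRCm38). The members and lists were chosen with earlier results of these data known. The rule for named genes takes the family, then from each list genes read in 12 cells with a line difference of 1 or more and the 2 most abundant per kb, and for each member with reads in 12 cells the 3 genes of highest r among genes read in 23 cells, without sex-linked and predicted genes. Other genes given by their cell counts, or for their line difference without the cells rich in glial and vascular markers, were chosen after their values were seen. Some listed genes are not reported here, and counts and medians of lists leave them out. Epb41l1 and Clcn4 were matched by older symbols. In counts simulated for 22800 genes by shuffling values over cells, 93% of genes raised 4-fold and 96% of genes lowered to 0.25-fold had the right sign. No rate was determined for genes at low levels, such as Slc12a2, Slc12a7, Slc12a9 and Clcn5, so these rates do not cover them. In the check of likeness, 100% of 30 copied genes ranked first among 9881 genes, which is not the set of 6704 genes compared in the results. Python 3.11.15, edgeR 4.0.16 (TMMwsp) and DESeq2 1.42.0 (poscounts) were used, the last 2 for scaling only.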

Additional observations from a re-analysis of the deposited data

How the results depend on the processing

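No paired analysis was possible because the labels name no animal, litter or day shared between the lines and no test was made. The line difference of Slc12a2 was -0.070 after thinning to 5000000 reads, -0.17 without the cells under 100 Gad1 reads and -0.29 without the cells over 1000 CPM of other cell types, and -0.19 to 0.26 with each cell left out. That of Slc12a5 was 0.031 by summed CPM and -0.47 to 0.12 with each cell left out, and that of Slc12a7 -0.09 to -0.002. Reads of Slc12a2 reached 10 CPM in 8 Htr3a line cells, and Slc12a7 was left in 1 Htr3a line cell with 5 reads or thinning and in 0 at 10 CPM. Slc12a5 lay above Slc12a2 in 14 Htr3a line and 7 Sst line cells among those with both read (median log2 ratio 1.09 in the Sst line), and in 12 and 9 without the cells over 1000 CPM of other cell types; these subsets hold fewer cells. The median log2 ratio with each cell left out was 4.52 to 5.58 for Htr3a line cells and 6.88 to 7.19 for Sst line cells, where Slc12a5 stayed above in 22 and in 19 to 20 cells. With a pseudocount of 10, 0 KCC2 partner, 0 chloride pathway and 0 ATPase genes passed a line difference of 1. Signs also changed for Cab39 (0.030 with poscounts, 0.047 without the cells over 1000 CPM), Cab39l (0.22 by summed CPM), Ckb (-0.052 with TMMwsp, -0.057 thinned, -0.082 summed, -0.094 without the cells under 100 Gad1 reads), Ppp1ca (-0.17), Clcn4 (-0.015), Atp1b3 (-0.38) and Slc12a9 (0.34) without the cells over 1000 CPM, Clcn4 thinned (-0.15) and Slc4a10 without the cells under 100 Gad1 reads (-0.26). With each cell left out, Cab39 ranged from -0.33 to 0.20, Ckb from -0.051 to 0.12, Clcn4 from -0.16 to 0.41, Atp1b3 from -0.027 to 0.58, Slc12a9 from -0.54 to 0.044 and Slc4a10 from -0.063 to 0.52. Where no construction shows it, the cause was not tested. The values of r without the 2 farthest cells and the Slc12a9 mean without its highest cell were chosen after seeing the data.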
